A study of Homo sapiens with 2 samples.

Results

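The mitochondrial ribosomal protein genes were taken as every protein-coding gene whose symbol is MRPL or MRPS followed by digits and an optional letter, which gave 78 of the 58884 listed genes. RNA came from T24/R cells, a human urinary bladder line described as adherent and epithelial, exposed for 6 h to THZ1 at 1600 nM, or to DMSO alone. THZ1 is a covalent inhibitor of CDK7, a kinase that phosphorylates RNA polymerase II at the start of transcription, with further activity against CDK12 and CDK13. Each treatment had 1 library, from 1 line, so differences between treatments could not be set against a spread between cultures, and p-values are not reported. The question put to the data is how RNA levels stood after THZ1.

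Mitochondria carry their own ribosome, which translates the mRNAs of the 13 protein-coding genes of the mitochondrial genome into core subunits of the respiratory chain. Its rRNAs are made inside the organelle, whereas all of its proteins are encoded in the nucleus, transcribed by RNA polymerase II, made in the cytosol and imported. The small subunit reads the mRNA, and the large subunit joins the amino acids and passes the chain out through a tunnel at the inner membrane. Some of the proteins descend from bacterial ribosomal proteins and others are found in mitochondria alone. Symbols of the MRPS kind mark small subunit proteins and those of the MRPL kind large subunit proteins, with 3 exceptions. MRPS30 and MRPS18A are large subunit proteins, and MRPS36 is a component of the 2-oxoglutarate dehydrogenase complex. This placed 26 members in the small subunit, 51 in the large subunit and 1 in neither.

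The THZ1 library held 18313827 counts and the DMSO library 18445831. Levels are CPM, counts scaled per 1000000, of the library size after TMM scaling, a trimmed-mean method that sets the bulk of the tested genes level between libraries. Ratios are log2 of THZ1 over DMSO after 0.5 was added to each count, with a 95% interval that covers counting error only. A gene that reached 30 counts in either library was tested, and was called lower or higher where THZ1 and DMSO differed by 2-fold or more with an interval that excluded 0. Among epithelial keratins, KRT18 stood at 32.2 CPM in THZ1 and 31.6 CPM in DMSO, and KRT8 at 6.53 in THZ1 and 3.49 in DMSO. KRT7 stood at 1.11 CPM in THZ1 and 0.816 in DMSO, and KRT19 had 1 count in each library. The epithelial genes EPCAM and CDH1 did not exceed 0.196 CPM in either library. The mesenchymal filament gene VIM stood at 5517 CPM in THZ1 and 2869 CPM in DMSO. The other mesenchymal genes were FN1, at 669 CPM in THZ1 and 510 in DMSO, and CDH2, at 244 in THZ1 and 179 in DMSO. The urothelial genes UPK1B, UPK3A and KRT20 had 0 counts in both libraries, and so had the endothelial gene CDH5. Other urothelial genes were near 0, with GATA3 at 12 counts in THZ1 and 25 in DMSO, UPK1A at 5 in THZ1 and 10 in DMSO, KRT5 at 5 in THZ1 and 3 in DMSO, and UPK2 at 2 in THZ1 and 0 in DMSO. In RNA from a whole culture, fewer cells of a kind and less RNA per cell cannot be told apart.

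Promoters were read for 69 of the 78 members from RefSeq (GRCh38.p14), from 250 bases before to 50 after the gene start, using the first start listed where a gene had several, as 11 members did. MRPL2, MRPL10, MRPL13, MRPL15, MRPL21, MRPL23, MRPL35, MRPS28 and MRPS36 were not matched. Both strands were searched for CCGGAAG, bound by ETS factors such as GABP, for GCATGCG, the core of the nuclear respiratory factor NRF1 site, for AAGATGGCG, bound by YY1, and for TATAAA. The ETS and YY1 motifs can overlap, since the first ends in the letters with which the second begins. The ETS motif stood in 29 members (42%), against 10.7% of 27305 RefSeq promoters and 21.2% of the promoters of 9000 tested coding genes. The YY1 motif stood in 13 members (18.8%), against 1.85% of all promoters and 4.37% of those of tested coding genes. The NRF1 core stood in 7 (10.1%), against 4.13% and 6.99%, and TATAAA in 2 (2.9%), against 12% and 5.16%. At least 1 of the ETS, NRF1 and YY1 motifs stood in 40 members, or 58%, against 15.3% of all promoters. The share over tested coding genes, which held each of these motifs more often than all promoters did, was not computed. Members with an ETS motif had a median log2 ratio of 0.21 over 28 tested genes, and those without one 0.16 over 39. Members with a YY1 motif had a median of −0.37 over 12 tested genes, and those without one 0.21 over 55. A match is a description of the letters in the window and shows no binding.

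These 5 promoters show this range, each written 5′ to 3′ on the strand of its gene with motif matches in capitals. MRPL44 had the lowest ratio of the tested members and MRPL51 the highest, MRPL52 holds 3 of the motifs, and MRPL46 and MRPS11 lie head to head. The windows are chr2:223957213-223957512 (plus strand) for MRPL44, chr12:6493213-6493512 (minus) for MRPL51, chr14:22829637-22829936 (plus) for MRPL52, chr15:88467339-88467638 (minus) for MRPL46 and chr15:88467458-88467757 (plus) for MRPS11.
MRPL44: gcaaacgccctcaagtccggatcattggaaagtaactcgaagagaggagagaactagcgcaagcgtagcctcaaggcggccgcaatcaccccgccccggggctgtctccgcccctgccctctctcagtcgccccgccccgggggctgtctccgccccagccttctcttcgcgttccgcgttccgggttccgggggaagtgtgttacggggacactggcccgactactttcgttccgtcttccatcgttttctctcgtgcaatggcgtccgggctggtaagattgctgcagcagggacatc
MRPL51: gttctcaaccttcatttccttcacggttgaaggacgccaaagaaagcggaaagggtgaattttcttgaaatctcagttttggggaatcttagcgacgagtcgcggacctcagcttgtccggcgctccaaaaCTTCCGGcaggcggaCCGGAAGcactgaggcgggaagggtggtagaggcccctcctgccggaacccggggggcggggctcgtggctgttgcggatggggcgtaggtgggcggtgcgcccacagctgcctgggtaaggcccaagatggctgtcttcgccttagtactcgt
MRPL52: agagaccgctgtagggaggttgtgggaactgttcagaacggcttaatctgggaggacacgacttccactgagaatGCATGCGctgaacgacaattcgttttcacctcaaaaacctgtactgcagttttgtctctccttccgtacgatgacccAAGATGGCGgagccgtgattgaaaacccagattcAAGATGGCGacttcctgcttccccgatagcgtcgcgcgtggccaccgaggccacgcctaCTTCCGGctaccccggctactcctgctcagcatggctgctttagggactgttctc
MRPL46: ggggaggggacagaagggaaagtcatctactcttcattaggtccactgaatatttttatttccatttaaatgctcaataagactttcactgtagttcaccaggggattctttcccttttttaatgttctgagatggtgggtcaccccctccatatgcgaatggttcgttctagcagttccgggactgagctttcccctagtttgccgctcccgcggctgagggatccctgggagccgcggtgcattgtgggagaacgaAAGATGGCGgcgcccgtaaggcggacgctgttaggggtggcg
MRPS11: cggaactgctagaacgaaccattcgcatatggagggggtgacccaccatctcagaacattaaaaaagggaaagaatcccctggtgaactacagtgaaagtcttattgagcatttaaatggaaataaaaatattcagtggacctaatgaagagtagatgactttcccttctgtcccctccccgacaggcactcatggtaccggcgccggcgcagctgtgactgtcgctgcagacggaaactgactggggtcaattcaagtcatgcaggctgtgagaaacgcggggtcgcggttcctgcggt
MRPL44 and MRPS11 hold none of the motifs in these windows, MRPL51 holds the ETS motif at 2 places, and MRPL46 holds the YY1 motif just inside its start. The MRPL46 and MRPS11 windows share 181 bases, read on opposite strands.

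Of the 78 members, 75 had enough counts to be tested. The mitochondrial ribosomal protein genes had ratios on both sides of 0, with a median log2 ratio of 0.19 (order-statistic interval −0.02 to 0.31), beside −0.03 for all tested genes. By the 2-fold rule 9 were called lower (12% of 75, beside 21.3% of all 12457 tested genes), 5 were called higher (6.67%, beside 9.7%) and 61 were neither. The interval lay below 0 for 22 members (29.3%, beside 40.7% of all tested genes) and above 0 for 37 (49.3%, beside 38.9%). A gene that reached the count minimum in DMSO alone is more easily called lower, and MRPL12 was such a gene. Of the 73 members with the minimum in both libraries, 8 were called lower (11%) and 5 higher (6.85%), with a median of 0.19. The shares of all tested genes under that condition were not computed. Over the 75 members the quartiles were −0.40 and 0.69, beside −0.83 and 0.55 for all tested genes, and the ratios ranged from −2.35 to 1.31. The SD of the ratios was 0.81 over members and 1.17 over all tested genes, so the members were spread less widely. The split between lower and higher moves with the scaling. With total counts every ratio shifts by −0.51, the members' median becomes −0.33, and 17 are called lower and 0 higher (22.7% and 0%, beside 34.2% and 2.95% of all tested genes, whose median becomes −0.54). On the mRNAs of the mitochondrial genome as the reference every ratio shifts by −1.69, the median becomes −1.5, and 56 are called lower and 0 higher (74.7% and 0%, beside 80.3% and 0.706% of all tested genes, whose median becomes −1.72). The order of the members and their distance from all other genes are the same under each scaling, and how much RNA a cell held cannot be read from these counts.

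**Figure D1:**
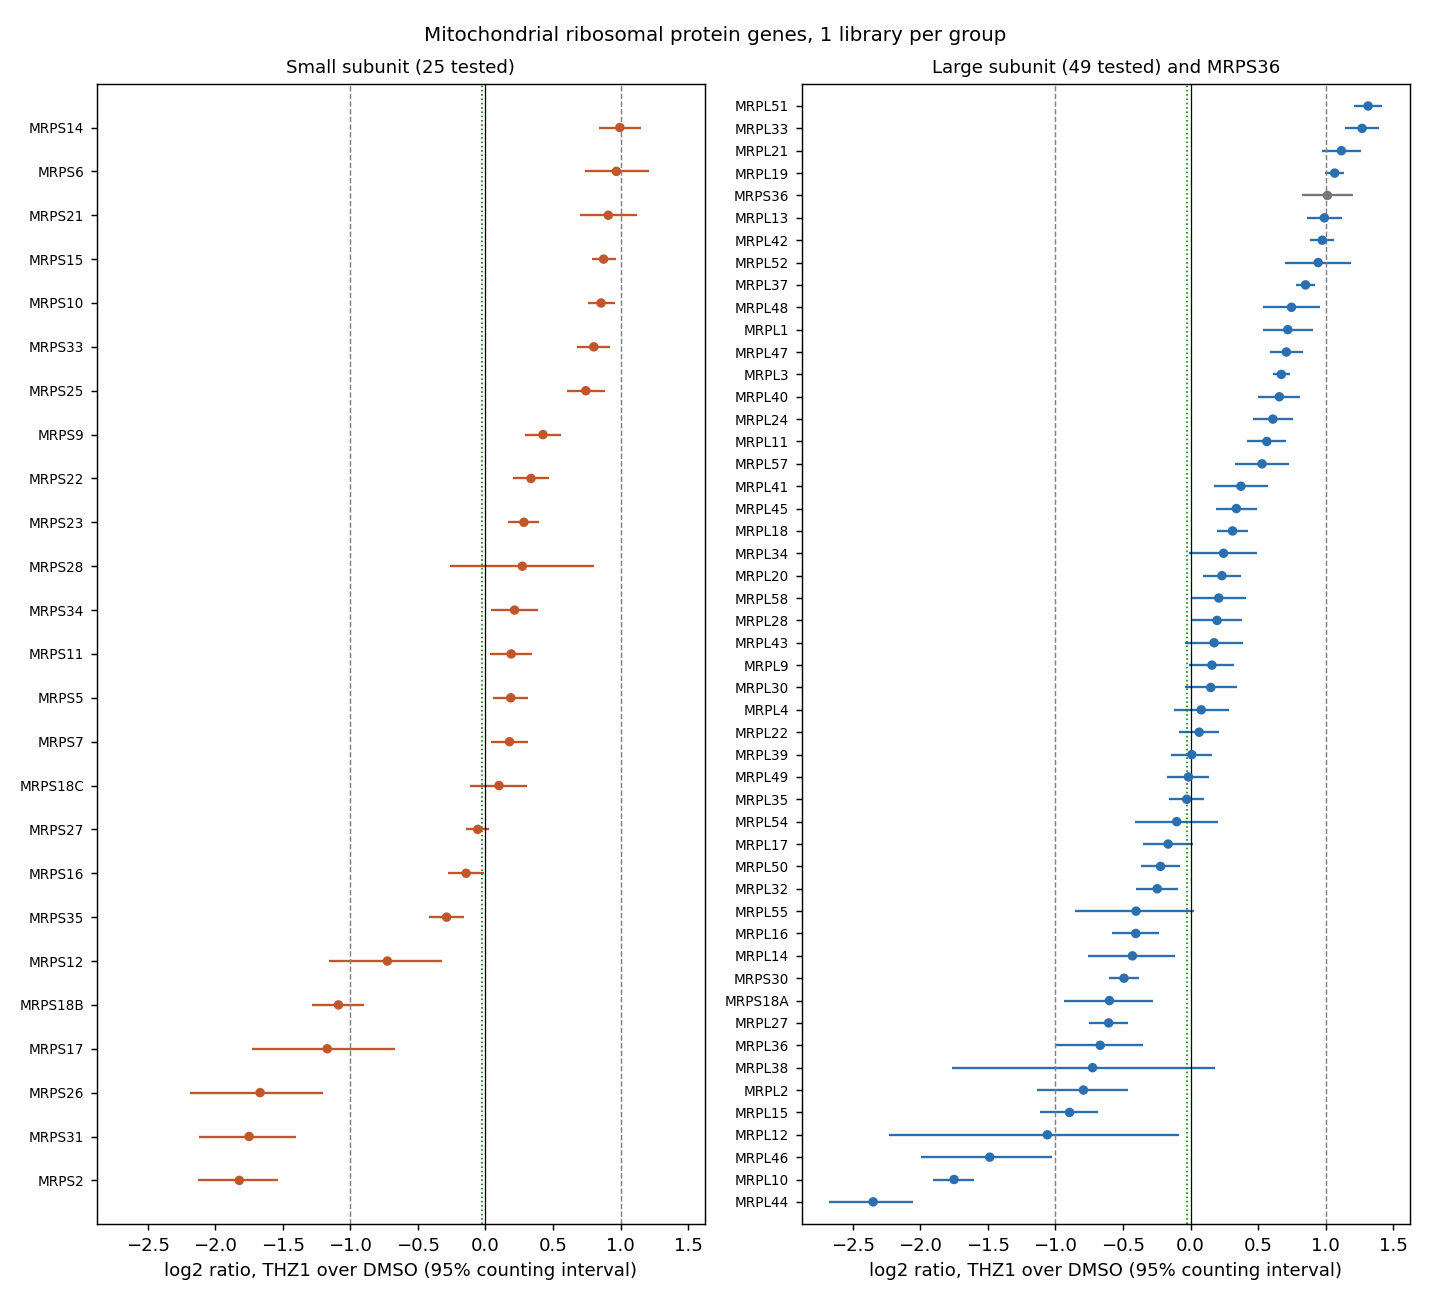
Ratio of THZ1 to DMSO on the log2 scale for each of the 75 tested members, with the small subunit on the left and the large subunit with MRPS36 (grey) on the right. Points are ratios, lines 95% counting intervals, dashed lines the 2-fold limits and the green dotted line the median of all tested genes, −0.03. The lowest point is MRPL44 at −2.35 and the highest MRPL51 at 1.31.

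Among the 25 tested small subunit genes, the median ratio was 0.19. Of these, 5 were called lower (20%, beside 21.3% of all tested genes), 0 higher (0%, beside 9.7%) and 20 neither. The share called lower was thus near that of all tested genes. MRPS2, the mitochondrial form of the bacterial protein S2, had 113 counts in THZ1 and 577 in DMSO, or 7.38 CPM in THZ1 and 26.2 CPM in DMSO. Its log2 ratio was −1.82 (−2.13 to −1.53), a 3.54-fold lower level in THZ1. On GRCh38, MRPS2 (ENSG00000122140) lies on chromosome 9 from 135499984 to 135504673. Mitochondrion-specific proteins of the small subunit came next. MRPS31 had 80 counts in THZ1 and 389 in DMSO (−1.75, −2.12 to −1.41). MRPS26 had 44 counts in THZ1 and 203 in DMSO (−1.67, −2.19 to −1.20). The remaining genes called lower lay nearer the limit. MRPS17, a homologue of bacterial S17, had 41 counts in THZ1 and 134 in DMSO (−1.17, −1.73 to −0.67). MRPS18B had 301 counts in THZ1 and 922 in DMSO (−1.09, −1.28 to −0.90).

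At the upper end of the small subunit stood 7 genes with ratios between 0.74 and 0.99, below the 2-fold limit but with intervals above 0. MRPS14 had 796 counts in THZ1 and 575 in DMSO (0.99, 0.84 to 1.15). MRPS6 had 351 counts in THZ1 and 258 in DMSO (0.97, 0.73 to 1.21), and MRPS21 had 428 in THZ1 and 328 in DMSO (0.91). These 3 are homologues of bacterial small subunit proteins, as are MRPS15 (0.87) and MRPS10 (0.86). MRPS33 (0.80) and MRPS25 (0.74) are mitochondrion-specific. On total counts these 7 ratios become 0.51 lower and remain above 0, and on the mitochondrial reference they lie below 0. MRPS12, whose bacterial homologue S12 lies at the decoding centre, had 69 counts in THZ1 and 165 in DMSO (−0.73, −1.16 to −0.32).

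Among the 49 tested large subunit genes, the median ratio was 0.16. Of these, 4 were called lower (8.16%, beside 21.3% of all tested genes), 4 higher (8.16%, beside 9.7%) and 41 neither. MRPL44, a large subunit protein with a ribonuclease III fold, was the lowest of all members at 99 counts in THZ1 and 729 in DMSO. Its level was 6.46 CPM in THZ1 and 33.1 CPM in DMSO, a ratio of −2.35 (−2.67 to −2.05) or 5.09-fold lower in THZ1. MRPL44 (ENSG00000135900) lies on chromosome 2 from 223957404 to 223967714. MRPL10, which anchors the stalk that recruits translation factors, had 430 counts in THZ1 and 2084 in DMSO (−1.75, −1.90 to −1.60). It was the most deeply counted of the 9 lower members, and its interval lies wholly past 2-fold. MRPL46, a mitochondrion-specific protein, had 46 counts in THZ1 and 187 in DMSO (−1.49, −2.00 to −1.03).

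MRPL12 forms the stalk itself, and it had 11 counts in THZ1 and 34 in DMSO (−1.06, −2.23 to −0.09). With 5 counts added in place of 0.5 it is not called, and it was tested through the DMSO library alone, as was MRPL38 (14 counts in THZ1 and 34 in DMSO). MRPL11, which sits at the base of the stalk, had 787 counts in THZ1 and 766 in DMSO (0.56, 0.42 to 0.71). The 3 stalk genes therefore had ratios on both sides of 0 on this scaling; MRPL11 also lay above 0 on total counts, and below 0 on the mitochondrial reference. Just outside the limit on the lower side stood MRPL15, with 251 counts in THZ1 and 673 in DMSO (−0.90, −1.11 to −0.69).

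The 4 higher genes of the large subunit were counted more deeply than most of the lower ones. MRPL51, a mitochondrion-specific protein, had 2066 counts in THZ1 and 1196 in DMSO, or 135 CPM in THZ1 and 54.2 CPM in DMSO. Its ratio was 1.31 (1.21 to 1.42), a 2.49-fold higher level in THZ1, and it lies on chromosome 12 from 6491886 to 6493841 (ENSG00000111639). MRPL33, a homologue of bacterial L33, had 1372 counts in THZ1 and 819 in DMSO (1.27, 1.14 to 1.40). MRPL21, a homologue of bacterial L21, had 1002 counts in THZ1 and 665 in DMSO (1.12, 0.97 to 1.26). MRPL19, a homologue of bacterial L19, had 4025 counts in THZ1 and 2766 in DMSO (1.07, 1.0 to 1.14). All 4 stay above 0 on total counts, where none is called, and lie below 0 on the mitochondrial reference, between −0.38 and −0.62. MRPL19 is also not called with DESeq2 size factors. MRPL13 (0.99, 0.86 to 1.12) stood just short of the limit, with 1114 counts in THZ1 and 807 in DMSO.

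Around the path of the new chain, MRPL45, which holds the large subunit to the inner membrane, had 674 counts in THZ1 and 767 in DMSO (0.34, 0.19 to 0.49). MRPL22 and MRPL24, whose bacterial homologues line the tunnel exit, had ratios of 0.06 (−0.09 to 0.21) and 0.61 (0.46 to 0.76). MRPL4, also a tunnel protein in bacteria, stood at 0.08 (−0.13 to 0.28). MRPL3, near the catalytic centre, was the most abundant member by counts, at 4199 in THZ1 and 3794 in DMSO (0.67, 0.61 to 0.74). MRPL58, a peptidyl-tRNA hydrolase that frees stalled chains and is also built into the large subunit, had 374 counts in THZ1 and 466 in DMSO (0.21, 0.01 to 0.41). On total counts the ratios of MRPL45, MRPL22, MRPL4 and MRPL58 lie below 0, whereas those of MRPL24 and MRPL3 do not.

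The 3 exceptions to the symbols did not move as a group. MRPS36 had 551 counts in THZ1 and 393 in DMSO (1.01, 0.82 to 1.20), the only one of the 5 higher members outside both subunits. It was not called with upper-quartile scaling, DESeq2 size factors or total counts, and stood at −0.68 on the mitochondrial reference. MRPS30 had 950 counts in THZ1 and 1924 in DMSO (−0.49, −0.61 to −0.38). MRPS18A had 112 counts in THZ1 and 245 in DMSO (−0.60, −0.94 to −0.28). MRPS18A is 1 of 3 relatives of the bacterial protein S18, which occupy different places in the ribosome. MRPS18B, at −1.09, and MRPS18C, with 329 counts in THZ1 and 442 in DMSO (0.10, −0.11 to 0.31), are the others, and the intervals of MRPS18B and MRPS18C do not overlap.

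By descent, the 44 tested homologues of bacterial proteins had a median of 0.18, with 4 called lower (9.09%) and 3 higher (6.82%). The 31 tested mitochondrion-specific proteins had a median of 0.21, with 5 called lower (16.1%) and 2 higher (6.45%). Of all tested genes 21.3% were called lower and 9.7% higher. Within the small subunit, 3 of 10 mitochondrion-specific genes (30%) and 2 of 15 bacterial homologues (13.3%) were called lower. Within the large subunit the numbers were 2 of 20 (10%) and 2 of 29 (6.9%). This grouping counts MRPS18A and MRPS18B as mitochondrion-specific although they are relatives of S18. With both among the bacterial homologues, a grouping made after the values were seen, 2 of 9 mitochondrion-specific genes and 3 of 16 bacterial homologues of the small subunit were called lower.

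Below the count minimum were 3 members. MRPL53 had 0 counts in both libraries, below a floor of 3 counts, which is 0.196 CPM in THZ1 and 0.136 CPM in DMSO, so it gives no fold. MRPS24 had 4 counts in THZ1 and 7 in DMSO, with an interval of −2.50 to 1.69 that spans 0, too few counts to detect a difference. MRPL23 had 14 counts in THZ1 and 4 in DMSO, with an interval of 0.66 to 4.39, and was not called because it was under the minimum. Exons of another gene on the same strand cover 45.2% of the exonic length of MRPL53 and 23.2% of that of MRPS24. Such cover reaches 68.2% for MRPL12, 37.5% for MRPL38, 35.8% for MRPS28, 32.6% for MRPL30 and 27% for MRPS17. Counting that sets aside reads shared by 2 genes lowers both, and the setting is not given in the sources used here, so the levels of these 7 genes are uncertain. Among the higher members, MRPL51 shares 31.3% of its exonic length with NCAPD2 on the opposite strand, and MRPL33 shares 21.1% with BABAM2 on the same strand. NCAPD2 had a ratio of −0.09 and BABAM2 of 1.03, and the part of either in its neighbour's value was not tested. Pseudogenes carry the names of 36 members and can take reads. The 79 such rows together held 49 counts in THZ1 and 63 in DMSO. These counts cannot show reads that were set aside because they matched a member and its pseudogene equally well.

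Levels per kb of exonic length let the members be set against each other within a library. In THZ1 they ranged from 0.249 to 101 CPM per kb with a median of 11.8, and in DMSO from 0.421 to 63.4 with a median of 11.3. Tested coding genes had median levels of 4.23 CPM per kb in THZ1 and 5.4 in DMSO. The highest levels in DMSO belonged to MRPL3 (101 CPM per kb in THZ1, 63.4 in DMSO) and MRPL37 (98.6 in THZ1, 54.7 in DMSO). In the order of DMSO levels, MRPL18 followed at 53.8 in THZ1 and 43.4 in DMSO, MRPL51 at 86.9 in THZ1 and 35 in DMSO, and MRPL10 at 10.2 in THZ1 and 34.2 in DMSO. MRPL38 was lowest at 0.249 in THZ1 and 0.421 in DMSO, with MRPL46 at 0.467 in THZ1 and 1.32 in DMSO, and MRPL12 at 0.698 in THZ1 and 1.5 in DMSO. Levels between genes depend on the length used, here that of all annotated exons joined. With the length of 1 coding transcript per gene, an alternative chosen after the values were seen, MRPL46 stood at 2.95 CPM per kb in THZ1 and 8.32 in DMSO. MRPL42, whose exons join to 16393 bases beside a transcript of 701 bases, then ranked 1 in THZ1 and 2 in DMSO, whereas MRPL38 and MRPL12 stayed lowest.

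The largest shifts in rank were those of lower members, though MRPL12 and MRPL46 kept their ranks. MRPL44 held rank 64 of 75 in THZ1 and rank 21 in DMSO, and MRPL10 held rank 45 in THZ1 and rank 5 in DMSO. MRPL21 moved the other way, with rank 18 in THZ1 and rank 40 in DMSO. Across the 75 members the levels of both libraries had a Spearman rho of 0.84, as a description over genes that share the same 2 libraries. The members also lay further from each other in THZ1. The SD of the log2 level per kb over small subunit genes was 1.52 in THZ1 and 1.16 in DMSO, and over large subunit genes 1.75 in THZ1 and 1.38 in DMSO. The same direction was seen over cytosolic ribosomal proteins (1.93 in THZ1 and 1.67 in DMSO) and over the respiratory chain (1.93 in THZ1 and 1.7 in DMSO). With the length of 1 coding transcript the small subunit SDs are 1.62 in THZ1 and 1.19 in DMSO.

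**Figure D2:**
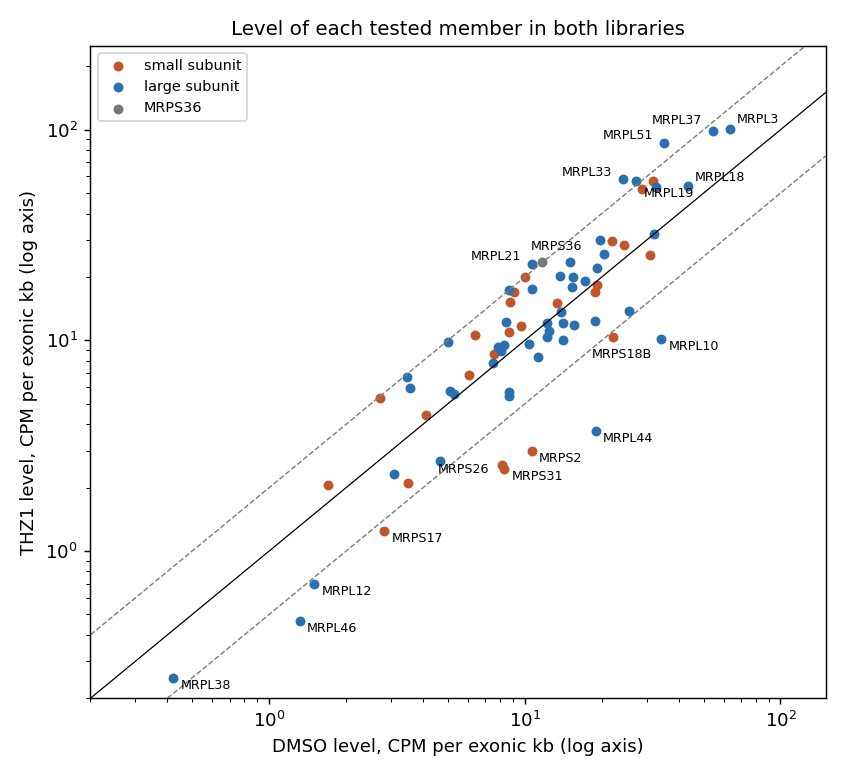
Level of each tested member in CPM per exonic kb, with the DMSO library on the horizontal and the THZ1 library on the vertical axis, both log axes. The solid line marks equal levels and dashed lines 2-fold differences. MRPL44 lies furthest under the lower line, and MRPL51 and MRPL33 lie above the upper one.

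Genes around the mitochondrial ribosome differed from list to list, and their ratios are given with the counts called lower and higher beside the 21.3% and 9.7% of all tested genes. Other symbols are carried by 5 subunits. All 5 were tested and neither lower nor higher, with a median of 0.26. GADD45GIP1 of the large subunit had 735 counts in THZ1 and 597 in DMSO (0.83, 0.67 to 0.98). Of the small subunit, CHCHD1 stood at 0.38, the GTP-binding protein DAP3 at 0.26, AURKAIP1 at 0.07 and the RNA-binding protein PTCD3 at 0.07. All but GADD45GIP1 lie below 0 on total counts.

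Factors that assemble the ribosome and modify its rRNA had a median of −0.90 (interval −1.0 to −0.20), and the rule called 8 of 25 lower and 0 higher. On total counts 16 of the 25 were called lower, beside 34.2% of all tested genes, and with DESeq2 size factors 13, beside 23.8%. MRM3, which methylates the large rRNA, had 26 counts in THZ1 and 260 in DMSO (−2.77, −3.44 to −2.21). The assembly GTPase MTG2 had 153 counts in THZ1 and 943 in DMSO (−2.09, −2.35 to −1.85), and its relative MTG1 had 11 in THZ1 and 51 in DMSO (−1.64). The others called lower were the helicase gene DDX28 (−1.41), the pseudouridine synthase gene RPUSD4 (−1.37), FASTKD2 (−1.24), MTERF3 (−1.23) and the GTPase gene GTPBP10 (−1.0). The ribonuclease gene YBEY, with 248 counts in THZ1 and 186 in DMSO (0.94), and the acyl carrier protein gene NDUFAB1 (0.92) had the highest ratios of this list, without reaching 2-fold.

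Translation factors and mRNA partners had a median of 0.28, and the rule called 2 of 15 lower and 1 higher; the median lies below 0 on total counts. MTRFR, a release factor homologue that acts on stalled ribosomes, had 148 counts in THZ1 and 977 in DMSO (−2.19, −2.46 to −1.95). TACO1, needed to translate the mRNA of cytochrome oxidase subunit I, had 156 counts in THZ1 and 626 in DMSO (−1.48). SLIRP, which stabilises mitochondrial mRNAs together with LRPPRC, had 3970 counts in THZ1 and 1476 in DMSO (1.95, 1.87 to 2.04) and remained above 0 on each scaling tried. MTRF1L, a release factor, had the next highest ratio, with 628 counts in THZ1 and 556 in DMSO (0.70).

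Genes of mitochondrial transcription and its nuclear regulators had a median of −0.82, and the rule called 8 of 17 lower and 1 higher. The coactivator gene PPRC1 had 94 counts in THZ1 and 1389 in DMSO (−3.35, −3.68 to −3.06). The coactivator gene PPARGC1B stood at −2.30 and the helicase gene TWNK at −2.40. NRF1 had 70 counts in THZ1 and 300 in DMSO (−1.57, −1.97 to −1.19). The 2 chains of GABP differed: GABPB1 had 104 counts in THZ1 and 642 in DMSO (−2.09, −2.41 to −1.80), whereas the DNA-binding chain GABPA had 1736 in THZ1 and 1808 in DMSO (0.47, 0.37 to 0.56; −0.05 on total counts). The other genes called lower were MTERF1 (−1.37), TFB2M (−1.3) and the DNA polymerase gene POLG (−1.16). YY1 (−0.29) and MYC (−0.31) did not reach 2-fold. SSBP1, which binds single-stranded mitochondrial DNA, was the 1 higher gene (1.02). It was not called with upper-quartile scaling (0.99), DESeq2 size factors (0.91) or total counts (0.51), and stood at −0.67 on the mitochondrial reference.

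**Figure D3:**
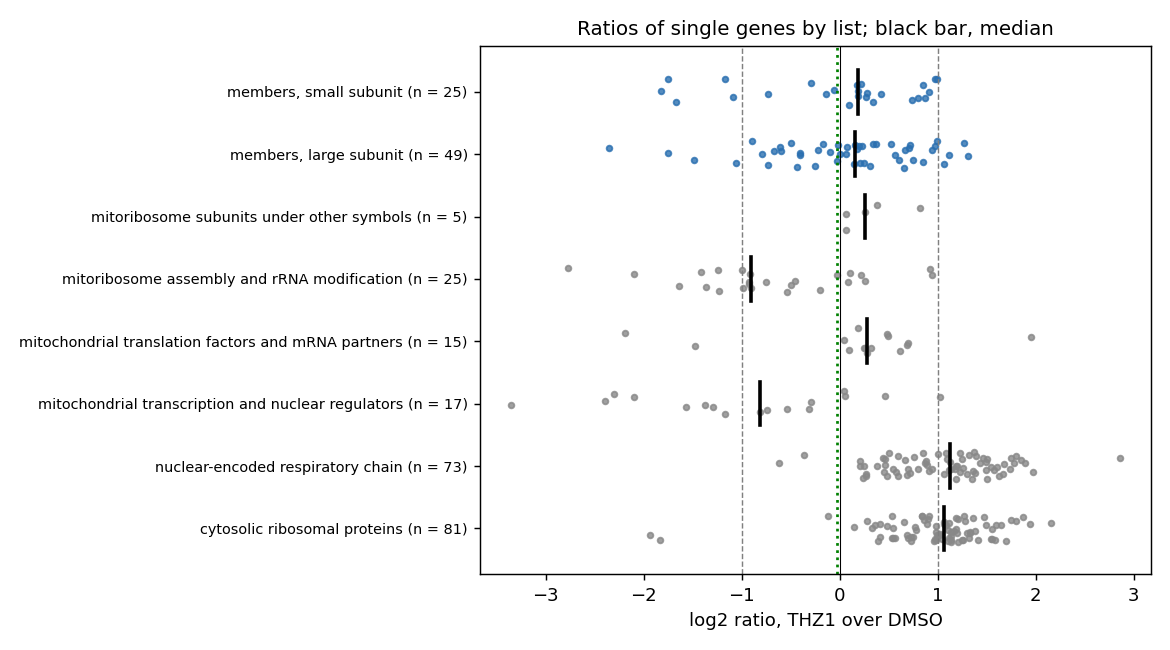
Log2 ratio of THZ1 over DMSO for each tested gene of the members (blue, by subunit) and of related lists (grey), with the median of each as a black bar, 2-fold limits dashed and the median of all tested genes as a green dotted line. The medians of both subunits, 0.19 and 0.16, lie between those of assembly factors, −0.90, and of respiratory chain genes, 1.13.

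Set beside 2 comparison families, cytosolic ribosomal protein and nuclear-encoded respiratory chain genes, the members had lower ratios. This does not hold for the lists of genes around the mitochondrial ribosome. Their medians were 0.26 for subunits under other symbols, 0.28 for translation factors, −0.82 for transcription genes and −0.90 for assembly factors. Of 81 tested cytosolic ribosomal protein genes 45 (55.6%) were called higher and 2 lower, with a median of 1.06 (0.98 to 1.14), and of 73 nuclear-encoded respiratory chain genes 42 (57.5%) were higher and 0 lower, with a median of 1.13 (0.88 to 1.26). On total counts 12 cytosolic ribosomal protein genes (median 0.55) and 14 respiratory chain genes (median 0.61) were called higher. Of all tested genes 2.95% were called higher on total counts, with a median of −0.54. On the mitochondrial reference the medians of both groups lie below 0. The members' 6.67% higher and median of 0.19 (−0.02 to 0.31) come from the same libraries and the same scaling, and with 1 library per group the difference between lists has no test. As shares of all counts, the members made up 0.310% in THZ1 and 0.343% in DMSO. Cytosolic ribosomal proteins made up 5.87% in THZ1 and 4.03% in DMSO, and the respiratory chain 0.869% in THZ1 and 0.583% in DMSO. The rRNAs of the mitochondrial ribosome were named here after their values were seen. MT-RNR2 had 829204 counts in THZ1 and 341700 in DMSO (1.80), and MT-RNR1 had 68798 in THZ1 and 49264 in DMSO (1.01). The libraries captured polyadenylated RNA, so these counts need not reflect the amount of rRNA.

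Head-to-head neighbours share a start region, and by GENCODE starts 21 members had another gene's start on the opposite strand within 1000 bases upstream. With 17 of these members the neighbour was protein-coding, and 15 pairs had both genes tested, the MRPL46 and MRPS11 pair counted once. The 2 genes had ratios of the same sign in 9 pairs and of opposite sign in 6, and their intervals were apart in 13. Both intervals were off 0 in 4 of the 6, and on total counts the signs were the same in 8 pairs and opposite in 7. Shares over other gene pairs were not computed. Among all tested genes the interval lay below 0 for 40.7% and above 0 for 38.9%, so these pair counts cannot be called particular to the members. MRPL21 had a ratio of 1.12, whereas IGHMBP2, a helicase gene whose start is 7 bases away, had 50 counts in THZ1 and 326 in DMSO (−2.17, −2.64 to −1.75). MRPL36 had 116 counts in THZ1 and 266 in DMSO (−0.67). The respiratory chain gene NDUFS6, 34 bases away in GENCODE, had 828 in THZ1 and 541 in DMSO (1.14, 0.98 to 1.3). MRPL46 (−1.49) and MRPS11, which had 592 counts in THZ1 and 747 in DMSO (0.19, 0.03 to 0.35), start 34 bases apart in GENCODE. The RefSeq starts behind the printed windows are 320 bases apart, since the RefSeq start of MRPS11 lies inside its GENCODE gene. The whole RefSeq windows of MRPL36 and MRPL41 also lie inside their GENCODE genes, further from the neighbour. Whether these 2 are head to head therefore depends on the annotation. MRPL10 (−1.75) stood below LRRC46 (−0.26), and MRPL27 (−0.61) stood above the nuclease gene EME1 (−1.68). Both genes lay above 0, with intervals apart, for MRPL47 (0.71) with the respiratory chain gene NDUFB5 (1.12) and for MRPL18 (0.31) with the chaperonin gene TCP1 (0.70). Members with a divergent neighbour had a median of −0.10 (−0.49 to 0.31) over 21 genes, and those without one 0.22 (0.06 to 0.56) over 54. These order-statistic intervals overlap, and the medians of other genes with and without such a neighbour were not computed.

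**Figure D4:**
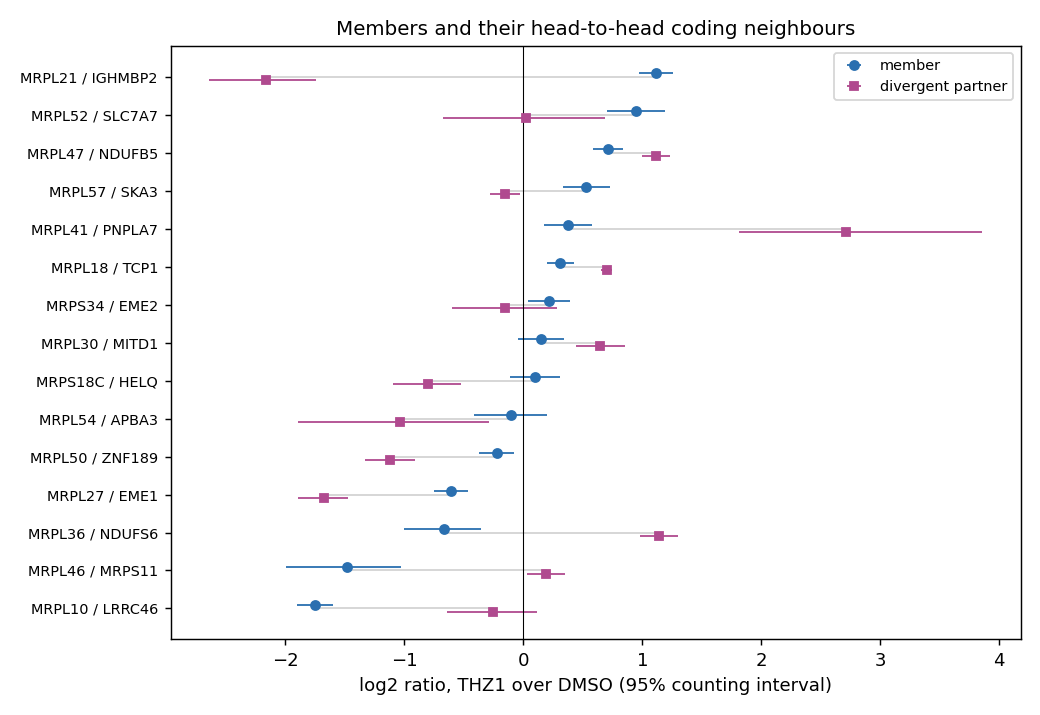
Log2 ratio of THZ1 over DMSO with 95% counting intervals for 15 members (blue circles) and the protein-coding genes that start head to head with them (purple squares), joined by a grey line. MRPL21 with IGHMBP2 and MRPL36 with NDUFS6 lie on opposite sides of 0, whereas MRPL47 with NDUFB5 lie on the same side.

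Features that the choice of members did not use were compared with the ratio across the 75 tested members, as descriptions over genes that are not independent replicates. The Spearman rho with genomic span was 0.34, beside 0.08 over 10881 tested coding genes. Of the 38 members that span at least 12370 bases, the members' median, 1 was called lower (2.63%) and 4 higher (10.5%). Of the 37 shorter members, 8 were called lower (21.6%) and 1 higher (2.7%). Among all tested coding genes the shares called lower were 20.7% for those at least as long and 26.5% for shorter ones, and the shares called higher were 6.67% and 11.1%. The share of shorter members called lower was thus not above that of shorter coding genes, and the longer members lay further from theirs. MRPS31, spanning 42039 bases, was the long gene called lower, and MRPL51, spanning 1956 bases, the short gene called higher. Splitting at the members' median was chosen after the values were seen.

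The rho with the GC content of the transcript was −0.30, beside −0.21 over 10876 coding genes. It was −0.28 with protein length in residues, beside −0.20, and −0.04 with transcript length, beside −0.17. With the number of exons it was 0.11, and with the DMSO level per kb 0.17. The lower members MRPS26 (63.4% GC) and MRPS2 (61.4%) were GC-rich, whereas MRPL44 (44.9%) and MRPS31 (39.7%) were not.

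**Figure D5:**
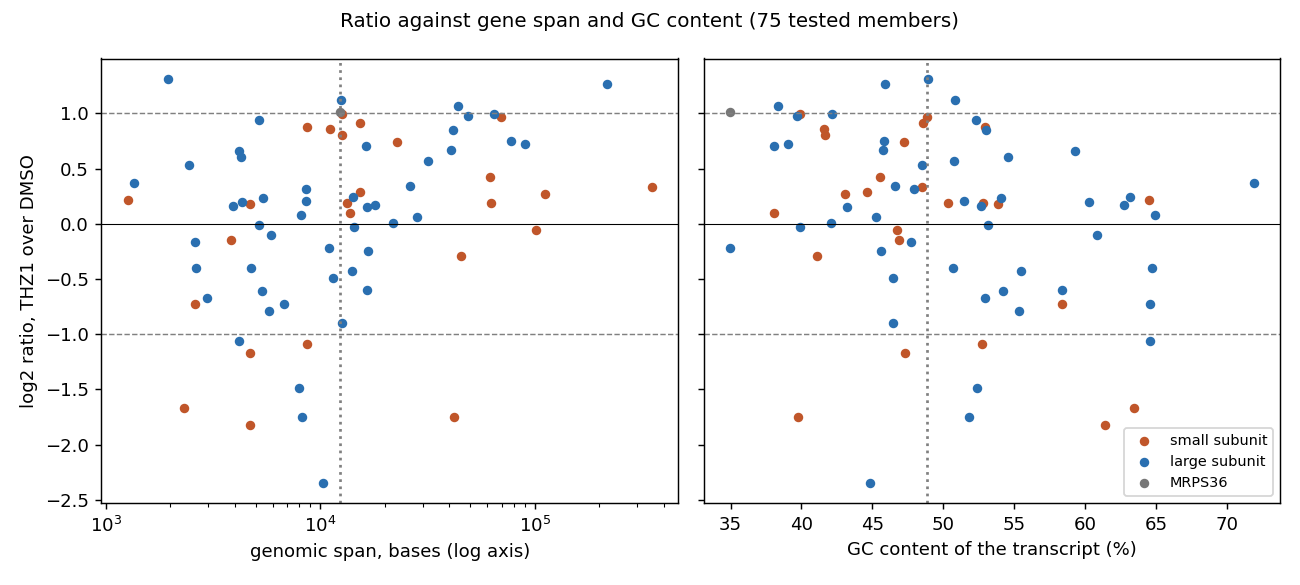
Log2 ratio of THZ1 over DMSO against genomic span (left, log axis) and GC content of the transcript with the longest coding sequence (right) for 75 tested members, coloured by subunit. Grey dotted lines mark the members' medians, 12370 bases and 48.9% GC, and dashed lines the 2-fold limits. In the left panel 8 of the 9 members called lower lie left of the dotted line. They are 21.6% of the 37 shorter members, beside 26.5% of shorter tested coding genes.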

How the data were processed

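Per the labels' protocols, TRIzol RNA of T24/R cells went into KAPA mRNA HyperPrep libraries, a kit that captures polyadenylated RNA. The values deposited by the authors are raw read counts per Ensembl gene, whole numbers that were not normalized, as the values show. GRCh38 is the build, and featureCounts 1.6.0, HISAT2 2.1.0 and Trimmomatic 0.38 are the tools, listed in the submitters' processing notes. Not given in the sources used here were the handling of reads shared by genes, the strand setting and the annotation's release. With the strand setting unknown, overlapping genes on opposite strands may have shared reads.

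Of 58884 IDs, 58611 were found in GENCODE 29 (GRCh38), the source of gene types, coordinates and lengths, and 58472 were matched to a symbol. TMM factors (edgeR 4.0.16, R 4.3.3) over the 12457 genes that reached 30 counts in either library gave effective library sizes of 15320940 for THZ1 and 22049153 for DMSO. Intervals are exact Clopper-Pearson intervals of the THZ1 share of both counts. Since PCR copies were not marked by molecular identifiers, reads can repeat a molecule, and intervals and floors hold only counting error. The steps were tested on simulated data. Named genes are the members past the 2-fold rule, the 5 lowest and 5 highest ratios, the 5 highest and 3 lowest DMSO levels per kb, members nearest the 2-fold line or under the minimum, exceptions of the symbol rule, symbols differing by a letter, subunits under other symbols, and in the lists of assembly, translation and transcription genes, but not in the comparison families, the genes past the rule and up to 4 furthest from 0 among those with 100 or more counts in a library, with NRF1, GABPA, YY1 and MYC. Other members, head-to-head neighbours and overlapping genes were named after their values were seen. The members and lists were chosen with earlier results of these data known. Alternatives were other scalings, including DESeq2 1.42.0 size factors, other count minimums, added counts and call rules, thinning, and leaving out members with pseudogene copies or overlapping exons. Figures were drawn with matplotlib 3.10.9 under Python 3.11.15, and scipy 1.17.1, numpy 2.4.6 and pandas 2.3.3 did the calculations.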

Additional observations from a re-analysis of the deposited data

How the results depend on the processing

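No paired analysis was possible because each treatment had 1 library and the labels give no replicate numbers. With total counts, 17 members were called lower and 0 higher, the median was −0.33, and intervals lay below 0 for 48 and above 0 for 20. On the mitochondrial mRNA reference 56 were lower and 0 higher, the median was −1.5, and intervals lay below 0 for 75 and above 0 for 0. There the ratios of MRPL19 (−0.62), MRPL21 (−0.57), MRPL33 (−0.42), MRPL51 (−0.38), MRPS36 (−0.68) and SSBP1 (−0.67) changed sign, through the shift that this scaling gives every gene. With DESeq2 size factors 3 members were higher (4%, beside 7.36% of all tested genes). With TMM over all listed genes, a setting chosen after seeing the data, 3 were also higher. Where the interval had to lie past 2-fold, 2 were higher, and MRPS17, MRPS18B and MRPL12 were no longer lower. With a 1.5-fold limit 15 were lower and 22 higher. The share of all tested genes past either of these call rules was not computed, so these counts cannot be set against it. Without members that have a pseudogene copy 40 remained, of which 3 were higher, with intervals below 0 for 11 and above 0 for 19. The lower members MRPS31, MRPS17 and MRPS18B have such a copy and were among those left out. Without members that overlap another gene's exons 37 remained, of which 4 were lower and 2 higher, with intervals below 0 for 12 and above 0 for 19. These last settings test fewer genes, and the shares of all tested genes under them, or with TMM over all listed genes, were not computed. Upper-quartile scaling, minimums of 1 and 100 counts, 5 counts added and thinning to equal totals left the member counts within 1.5 times of those reported and the median above 0. Members with few counts, such as MRPL12, MRPL38 and MRPS24, have wide intervals, and no setting measures the spread between cultures.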
